A study of Mus musculus with 12 samples.

Results

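Livers that received a hairpin against G0s2 were compared directly with livers that received a hairpin against Rgs16. The comparison holds 8 of the 12 samples of the series, 4 per hairpin, and was made by joining both deposited tables on the gene identifier and testing every gene that passed a filter on low counts. Wild-type C57BL/6J mice, 8 weeks of age, were given adenovirus expressing a short hairpin RNA through the tail vein at 0.1 OD, and livers were collected 12 days later. Collection was at zeitgeber time 12, after food had been withdrawn for 6 h of the day. The shG0s2 group carried a hairpin against G0s2, the shRgs16 group a hairpin against Rgs16, and the shLacZ group, a virus control with a hairpin against a bacterial gene, served here to say which hairpin group departed from control. Every group therefore shares the type of virus, its dose of 0.1 OD, the strain, the age and the fast, and no uninjected animals enter the comparison. The hairpin level reached in each liver was not compared here. Hairpin virus was delivered to the animal as a whole and RNA was taken from whole liver, so RNA from all liver cell types was measured together, and in such bulk samples fewer cells of a type cannot be told apart from less RNA per cell. The labels do not say that replicates are separate animals, so p-values measure only the spread between these samples, which may be technical.

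G0s2 encodes a small protein that binds and inhibits adipose triglyceride lipase (the product of Pnpla2), the enzyme that starts the breakdown of stored triglyceride in lipid droplets. Rgs16 encodes a GTPase-activating protein that speeds the shut-off of G protein alpha subunits of the Gi and Gq families, and so shortens signalling from the receptors coupled to them. Both transcripts in liver are known to respond to feeding and fasting, and both genes have been linked to hepatic fat handling.

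Total estimated counts were 18458266 to 26031061 per sample in shG0s2 and 24855361 to 27170443 in shRgs16, and shG0s2 replicate 2 was the shallowest. The level of a gene in a sample is its CPM, its count relative to a library total of fixed size after scaling by TMM (trimmed mean of M values), and single-sample values follow the order of replicates 1 to 4. All 20 hepatocyte markers were detected, and Alb, the albumin gene, took 4.13% ± 0.778 of counts in shG0s2 (SD, n = 4, as for every mean ± SD below) and 4.34% ± 0.281 in shRgs16. A principal component analysis of all genes tested held 57.0% of the variance on its first component, along which the shG0s2 samples lay farthest from shLacZ with shRgs16 between them. The next component held 16.7% and separated the 4 shRgs16 samples from the other 8. TMM sets the bulk of genes to no difference, and its factors were 1.13 to 1.25 in shG0s2 and 0.998 to 1.05 in shRgs16. In shLacZ they were 0.803 to 0.883, so shG0s2 against shLacZ rests more on this scaling than the direct contrast. Values against shLacZ below are with TMM unless another scaling is named. With library size alone the median log2 fold change of shG0s2 over shRgs16 moved from 0.01 to 0.21 over all genes. Every change below is therefore relative to the bulk of genes. Values with library size alone stand beside the lists whose balance they turn.

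The targeted transcripts differed between the hairpin groups in the direction the labels give. G0s2 (ENSMUSG00000009633; chromosome 1, 193272161 to 193273217, minus strand, GRCm38) measured 49.3, 37.9, 24.6 and 37.0 CPM in the shG0s2 samples and 88.3, 57.8, 69.2 and 84.7 CPM in the shRgs16 samples. The highest shG0s2 sample lay below the lowest shRgs16 sample. The log2 fold change of shG0s2 over shRgs16 was −1.01 (SE 0.203, adjusted p 0.00237 by edgeR's quasi-likelihood test). The shLacZ mean of 73.7 ± 9.80 CPM (SD, n = 4) was close to the shRgs16 mean of 75.0 ± 14.1, and the log2 change of shRgs16 against shLacZ was 0.03 (adjusted p 0.926). Rgs16 (ENSMUSG00000026475; chromosome 1, 153740349 to 153745468, plus strand) measured 71.3, 59.0, 43.9 and 62.2 CPM in shG0s2 and 14.4, 19.7, 37.4 and 33.3 CPM in shRgs16, again without overlap. Its log2 fold change of shG0s2 over shRgs16 was 1.18 (SE 0.329, adjusted p 0.0169). Both hairpin groups lay below the shLacZ mean of 149 ± 46.3 CPM, with log2 changes of −1.33 in shG0s2 (adjusted p 0.00482) and −2.51 in shRgs16 (adjusted p 2.00e-04). The direct contrast of Rgs16 therefore compares a deeper with a shallower fall, whereas that of G0s2 compares a fall with a level near control.

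**Figure D1:**
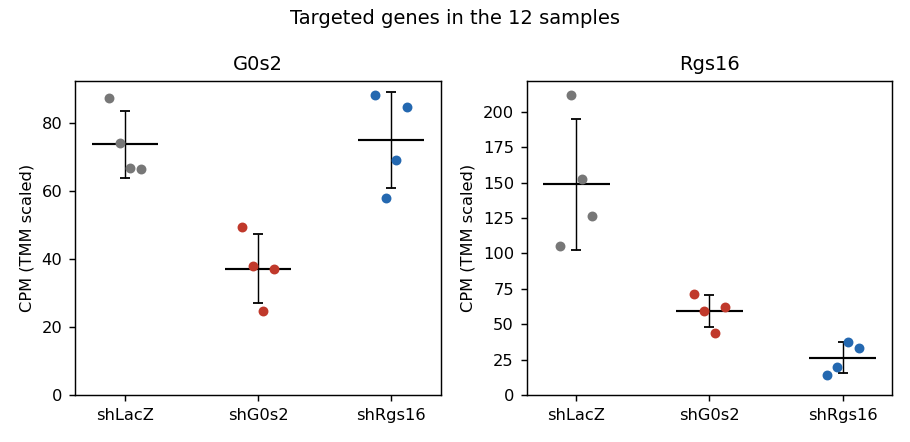
CPM of G0s2 (left) and Rgs16 (right) in the 12 samples by group; each point is 1 sample, the long line is the group mean and the bar 1 SD. For G0s2 the shG0s2 samples (24.6 to 49.3 CPM) lie below both other groups, and for Rgs16 both hairpin groups lie below shLacZ, with shRgs16 (14.4 to 37.4 CPM) lowest.

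The transcriptomes of the hairpin groups differed widely. Of 16018 genes tested, 6640 (41.5%) passed an adjusted p of 0.05, 3359 (21.0%) higher in shG0s2 and 3281 (20.5%) lower. Changes of at least 2-fold among them numbered 1270 (7.93%), of which 749 (4.68%) were higher in shG0s2 and 521 (3.25%) lower. Scaling by library size alone turned the near-even split to 6054 higher (37.8%) and 1568 lower (9.79%), so that 79.4% of calls were higher in shG0s2 against 50.6% with TMM, and limma on log2(TPM + 1) gave 6156 higher (43.7%) and 1083 lower (7.69%), or 85.0% of calls higher. In 6375 genes (39.8%) the samples of the hairpin groups did not overlap, 3271 (20.4%) with shG0s2 above and 3104 (19.4%) with shG0s2 below. Where a list below has 0 members past the threshold in a direction, 0 also had an unadjusted p under 0.05 in that direction, except for neutrophil markers, and DESeq2 and limma-voom also called 0, except for neutrophil and hepatocyte markers; other scalings are given where they differ. The sign balance of the transcriptome thus depends on the scaling, and single genes and lists are read below against these background shares.

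**Figure D2:**
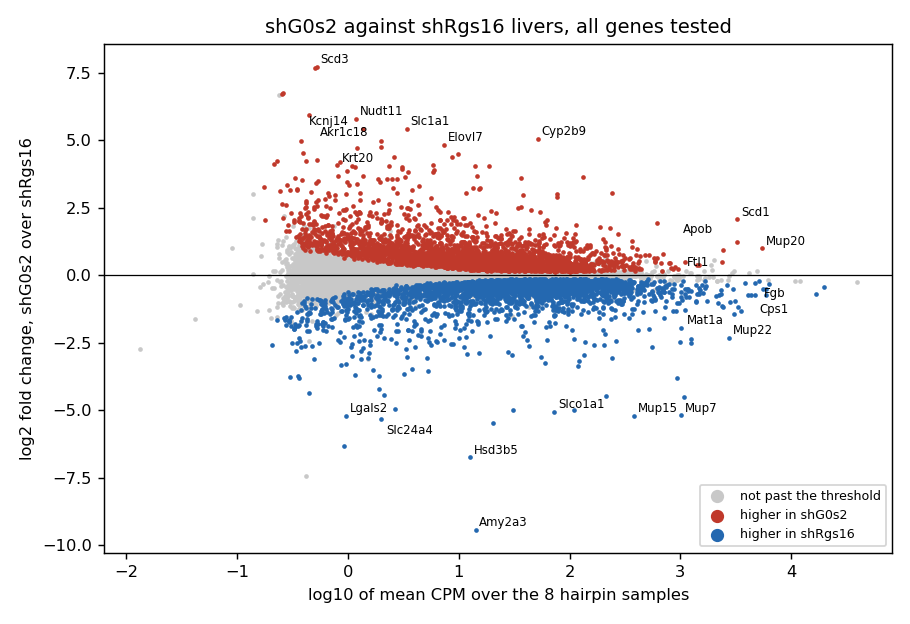
Log2 fold change of shG0s2 over shRgs16 (y axis) against the log10 of the mean CPM over the 8 hairpin samples (x axis) for the 16018 genes tested; red points are genes higher in shG0s2, blue points genes higher in shRgs16 and grey points genes not past the threshold. Labelled genes are the largest rises and falls and the most abundant changed genes, from Amy2a3 at −9.42 to Scd3 at 7.70, a fitted value that is no bound because shRgs16 has 0 counts of it.

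The shLacZ samples place these differences. Against shLacZ, 9798 genes (61.2%) passed the threshold in shG0s2 (31.2% higher and 30.0% lower) and 7861 (49.1%) in shRgs16 (25.5% higher and 23.6% lower), and these contrasts share the same 4 control samples. Among the 6640 genes that differed between the hairpins, 2448 (36.9%) passed against shLacZ in shG0s2 alone and 1068 (16.1%) in shRgs16 alone. A further 2352 (35.4%) passed in both in the same direction, and 284 (4.28%) in both in opposite directions, while 488 (7.35%) passed in neither. Of the 1132 same-direction genes that were higher than shLacZ in both groups, 1012 had the larger change in shG0s2 and 120 in shRgs16. Of the 1220 lower in both, 936 had the larger change in shG0s2 and 284 in shRgs16. For these 2352 genes the direct contrast was a difference in the size of a departure that both hairpin groups had from control, and the shG0s2 departure was more often the larger.

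The largest rises in shG0s2 over shRgs16 were in genes of low level in shRgs16, at most 3.58 CPM in any sample. Cyp2b9, a female-biased cytochrome P450, measured 97.8, 122, 88.5 and 94.6 CPM in shG0s2 and 2.82, 2.44, 3.45 and 3.58 CPM in shRgs16. The log2 fold change was 5.04 (SE 0.206, adjusted p 1.35e-08), and the shRgs16 level was near the shLacZ mean of 2.82 ± 1.14 CPM. Elovl7, which lengthens fatty acids, measured 12.0 to 15.8 CPM in shG0s2 and 0.291 to 0.785 CPM in shRgs16 (log2 fold change 4.82, SE 0.201, adjusted p 4.23e-10). Slc1a1, a glutamate and aspartate transporter, rose with it, from 0.0796 to 0.218 CPM in shRgs16 to 5.32 to 9.27 CPM in shG0s2 (log2 fold change 5.42, SE 0.372). Scd3, a stearoyl-CoA desaturase related to Scd1, had 108 counts over the shG0s2 samples and 0 over the shRgs16 samples. Against a floor of 3 counts over the shRgs16 group that is at least 35.0-fold higher. Nudt11, a phosphohydrolase, Kcnj14, an inward rectifier potassium channel, Akr1c18, a steroid dehydrogenase, and Krt20, a keratin of simple epithelia, completed the 8 largest rises. Their shG0s2 means were 2.34, 2.67, 3.90 and 3.89 CPM and their log2 fold changes 5.78, 5.42, 4.95 and 4.73. For 3 of these 4 a single library moved the size by over 1.5-fold: Nudt11 became 7.03 without shRgs16 replicate 1, Kcnj14 became 9.06 without shRgs16 replicate 4 and 4.84 without shG0s2 replicate 2, and Krt20 became 5.56 without shRgs16 replicate 1.

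The largest falls joined a pair of patterns. In the first, the transcript was present in shLacZ and nearly gone in shG0s2. Hsd3b5, a male-biased hydroxysteroid dehydrogenase, measured 0.335, 0.087, 0.277 and 0.182 CPM in shG0s2 and 17.1, 14.5, 52.5 and 16.0 CPM in shRgs16, against a shLacZ mean of 90.1 ± 19.6 CPM. The log2 fold change was −6.74 (SE 0.724, adjusted p 5.82e-05) and −6.09 without shRgs16 replicate 3, the highest sample. Slco1a1, an uptake transporter for organic anions including bile acids, stood at 1.78 to 8.39 CPM in shG0s2 and 80.6 to 215 CPM in shRgs16, against a shLacZ mean of 313 ± 19.4 CPM (log2 fold change −5.05, and −5.64 without shG0s2 replicate 3). Slc24a4, a potassium-dependent sodium and calcium exchanger, averaged 0.0941 CPM in shG0s2, 3.89 in shRgs16 and 4.14 in shLacZ (log2 fold change −5.33, and −6.55 without shG0s2 replicate 4). Mup15 and Mup7, members of the major urinary protein family, averaged 20.0 ± 21.8 and 54.5 ± 40.9 CPM in shG0s2 and 745 ± 679 and 1990 ± 1339 CPM in shRgs16. In shLacZ Mup15 and Mup7 averaged 5529 ± 1141 and 15192 ± 2677 CPM. Hsd3b5, Slco1a1, Mup15 and Mup7 also passed below shLacZ in shRgs16, with log2 changes of −1.85, −1.15, −2.89 and −2.93. The log2 fold changes of Mup15 and Mup7 between the hairpins were −5.21 and −5.19, and Mup15 moved to −6.21 without shG0s2 replicate 3 and to −4.43 without shRgs16 replicate 3. Mup genes are near-identical copies among which estimated counts are divided by a model, so the value of each copy is uncertain. All 49 Mup genes together took 1.15% ± 0.311 of counts in shG0s2, 2.28% ± 0.896 in shRgs16 and 10.5% ± 0.643 in shLacZ. The hairpin groups overlapped in that share (exact two-sided permutation p 0.0571).

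In the other pattern the transcript was near 0 in both shLacZ and shG0s2 and appeared in shRgs16. Amy2a3, a pancreatic amylase gene of which the genome holds near-identical copies, measured 0, 0.087, 0.0694 and 0 CPM in shG0s2, at most 0.0472 CPM in shLacZ, and 18.2, 53.8, 17.2 and 24.6 CPM in shRgs16 (log2 fold change −9.42, SE 0.706, adjusted p 3.17e-06). Of the 21 exocrine pancreas markers 3 passed the low-count filter, Amy2a3, Cela2a and Cela1, and all 3 were higher in shRgs16 than in shG0s2 and than in shLacZ. Cela2a, a pancreatic elastase, averaged 2.73 ± 0.686 CPM in shRgs16 and 1.07 ± 0.376 in shLacZ. The summed level of the markers was 40.6 to 73.1 CPM in shRgs16, 9.88 to 11.9 in shG0s2 and 10.1 to 14.6 in shLacZ, and 8 of the 21 had 0 counts in all 12 samples, among them Prss1, Prss2, Pnlip, Cel, Cpa1 and Cpb1. The part of pancreatic RNA in these values was not tested. Lgals2, a galectin, averaged 1.88 ± 0.526 CPM in shRgs16 and 0.0447 ± 0.0417 CPM in shG0s2 (log2 fold change −5.21, and −5.96 without shG0s2 replicate 1).

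**Figure D3:**
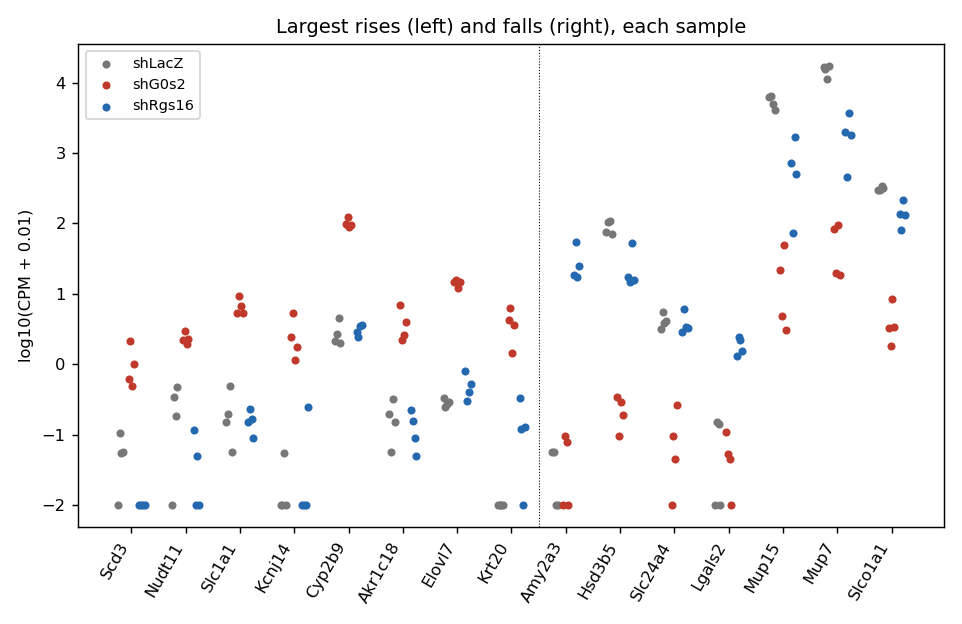
Log10 of CPM plus a small constant in each of the 12 samples for the largest rises (left of the dotted line) and the largest falls (right of it); grey is shLacZ, red shG0s2 and blue shRgs16, and samples listed at 0 lie on the lowest row of points. Absence of overlap between red and blue points was a condition for a gene to be shown. For Amy2a3 and Lgals2 the blue points stand above both red and grey.

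Among abundant transcripts the largest difference in mean CPM in favour of shG0s2 was in Scd1, which makes monounsaturated fatty acids. Scd1 measured 7393, 4752, 4210 and 4671 CPM in shG0s2 and 1294, 1694, 704 and 1323 CPM in shRgs16, while shLacZ averaged 4932 ± 1270. The log2 fold change was 2.07 (SE 0.285, adjusted p 1.58e-04), and against shLacZ it was 0.09 in shG0s2 (adjusted p 0.79) and −1.98 in shRgs16 (adjusted p 1.70e-04). Apob, the structural protein of very-low-density lipoprotein, measured 4093 to 4990 CPM in shG0s2, 1741 to 2180 in shRgs16 and 5104 to 6840 in shLacZ (log2 fold change 1.22, SE 0.109). Mup20 averaged 7270 ± 928, 3636 ± 565 and 22484 ± 1292 CPM in the same order, and was the only one of 27 male-biased genes to be higher in shG0s2. Ftl1, the ferritin light chain, measured 3055 to 3377 CPM in shG0s2 and 1531 to 1807 in shRgs16 (log2 fold change 0.94), and it has processed copies that could share its reads. In favour of shRgs16 the largest mean differences were in Mup22, Cps1, Mat1a and Fgb. Cps1, the entry enzyme of the urea cycle, averaged 2005 ± 430 CPM in shG0s2 and 5029 ± 381 in shRgs16 (log2 fold change −1.33, adjusted p 3.49e-06). Mat1a, which makes S-adenosylmethionine, averaged 1669 ± 322 and 4459 ± 263 CPM (−1.42), and Fgb, the fibrinogen beta chain, 2025 ± 443 and 4623 ± 619 CPM (−1.19). Mup22 had a log2 fold change of −2.32 (adjusted p 0.00919) that became −3.28 without shG0s2 replicate 3, which had 2269 CPM where the other 3 shG0s2 samples had 330 to 561.

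The 284 genes that departed from shLacZ in opposite directions divided into 141 higher and 143 lower in shG0s2 than in shRgs16. Cox7a1, a subunit of cytochrome c oxidase typical of heart and muscle, measured 2.31, 2.52, 2.77 and 2.65 CPM in shG0s2, 0.661 to 0.973 CPM in shLacZ and 0.214, 0.182, 0.196 and 0.199 CPM in shRgs16 (log2 fold change between hairpins 3.66, SE 0.236, adjusted p 3.18e-08). Cyp21a1, the steroid 21-hydroxylase gene, averaged 6.49 ± 1.95 CPM in shG0s2, 2.17 ± 0.943 in shLacZ and 0.444 ± 0.244 in shRgs16. Phospho1, a phosphatase of phosphocholine and phosphoethanolamine, averaged 24.3 ± 8.97, 8.25 ± 2.95 and 2.53 ± 1.10 CPM in the same order. Nudt11 had the same arrangement. Cyp39a1, an oxysterol hydroxylase of bile acid synthesis, stood the other way, with 20.7, 13.4, 11.8 and 13.2 CPM in shG0s2, 23.3 to 33.6 in shLacZ and 48.6, 63.4, 77.4 and 66.6 in shRgs16. Its log2 change against shLacZ was −1.01 in shG0s2 (adjusted p 0.00101) and 1.10 in shRgs16 (adjusted p 6.56e-04). Enho, which encodes the secreted peptide adropin, averaged 5.13 ± 2.06, 10.3 ± 3.07 and 21.3 ± 2.92 CPM in shG0s2, shLacZ and shRgs16. Ly6f, of the Ly6 family of surface proteins, averaged 0.161, 0.566 and 5.18 CPM in that order, and Cela2a shared the arrangement at 0.318, 1.07 and 2.73 CPM.

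**Figure D4:**
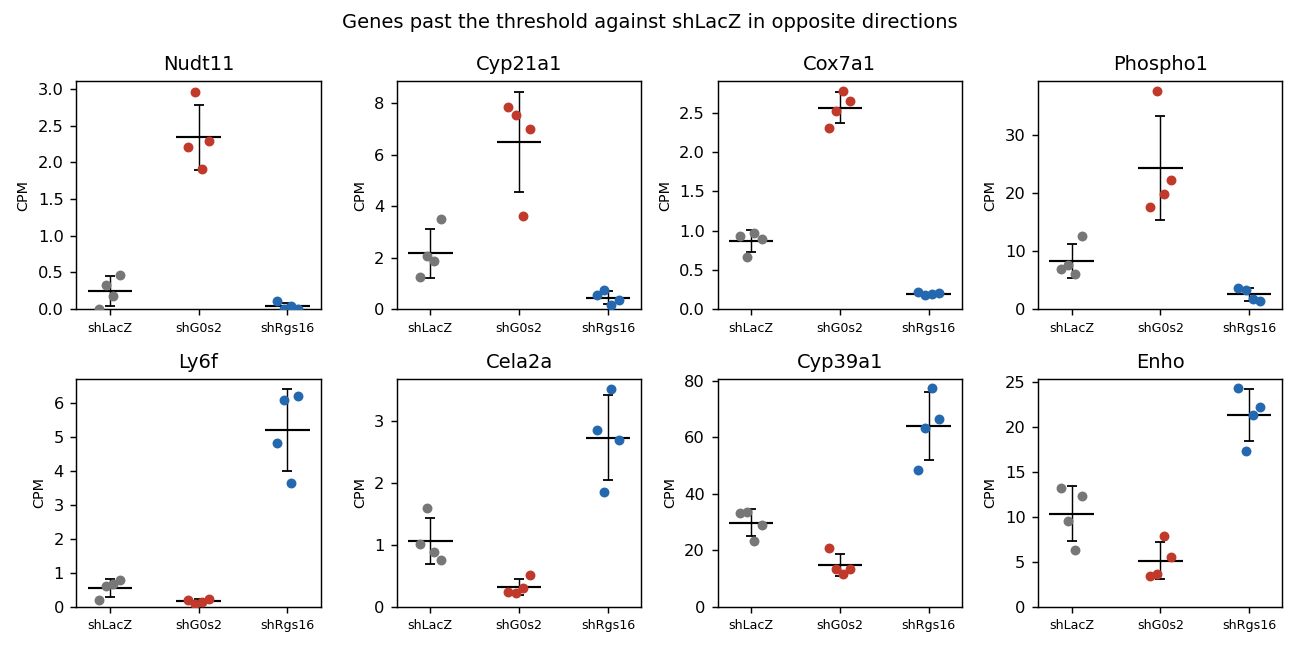
CPM in each sample for the 4 genes in each direction that passed the threshold against shLacZ in opposite directions; points are samples, the long line is the group mean and the bar 1 SD, and each panel has its own axis from 0. In the top row shG0s2 lies above and shRgs16 below the shLacZ mean, and in the bottom row the order is reversed.

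Gene lists were read from the number of tested members past the threshold in each direction, beside 21.0% higher and 20.5% lower over all genes. Counts with library size alone stand beside 37.8% higher and 9.79% lower over all genes. A count turned by that scaling is therefore not by itself a turn relative to all genes. Of each list, the 2 members with the smallest p are named by rule, and further members named below were chosen after their values were seen. Cell cycle genes were higher in shG0s2 than in shRgs16. Of 25 DNA replication genes 22 were higher and 2 lower, with a median log2 fold change of 0.79. The median was 1.22 in shG0s2 and 0.52 in shRgs16 against shLacZ, so both hairpin groups exceeded control and shG0s2 by more. Mcm3, a subunit of the replicative helicase, measured 27.7, 26.5, 27.4 and 29.8 CPM in shG0s2, 10.2 to 14.2 in shRgs16 and 8.38 to 9.53 in shLacZ (log2 fold change 1.28, SE 0.0957, adjusted p 1.38e-07). Pcna, the sliding clamp of DNA polymerases, averaged 66.1 ± 2.31 CPM in shG0s2 and 42.0 ± 3.54 in shRgs16. The exceptions Tk1, thymidine kinase, and Mcm10, a replication initiation factor, were lower in shG0s2, with log2 fold changes of −0.78 and −0.49. Of 25 mitotic genes 18 were higher and 0 lower (median 0.52), and all 25 were higher than shLacZ in each hairpin group. Ect2, a cytokinesis regulator, averaged 17.3 ± 2.93 CPM in shG0s2, 7.28 ± 1.24 in shRgs16 and 2.17 ± 0.243 in shLacZ, and Top2a, a topoisomerase, 28.2 ± 3.22, 16.8 ± 3.11 and 6.55 ± 0.662 CPM.

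Regulators of G1, the phase before DNA replication, were also higher in shG0s2, with 14 of 21 tested higher, 3 lower and a median of 0.39. Ccne1, cyclin E1, measured 15.7, 23.5, 15.3 and 18.7 CPM in shG0s2 and 4.64, 4.26, 3.92 and 3.90 in shRgs16, where it did not pass against shLacZ (log2 change 0.06, adjusted p 0.80). Its log2 fold change between hairpins was 2.12 (SE 0.167, adjusted p 2.39e-07), and Ccne2 followed with 2.21 (SE 0.261). Ccnd1, cyclin D1, rose against shLacZ in both, to 139 ± 22.0 CPM in shG0s2 and 47.5 ± 5.71 in shRgs16 from 20.9 ± 0.751. The lower members were Ccnd3, Rbl2 and Cdkn2c. Cdkn1a, the p21 inhibitor of cyclin-dependent kinases and a p53 target, was higher together with the cyclins (log2 fold change 1.18, adjusted p 0.00105). Of 24 p53 and DNA damage genes 16 were higher and 3 lower, with a median of 0.58. Aen, a p53-induced nuclease, measured 53.6 to 68.0 CPM in shG0s2 and 31.2 to 33.7 in shRgs16, and Zmat3, a p53-induced zinc finger protein, 35.7 to 45.3 and 25.0 to 27.3 CPM. Aen lay above shLacZ in shG0s2 (log2 change 0.48) and below it in shRgs16 (−0.47).

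**Figure D5:**
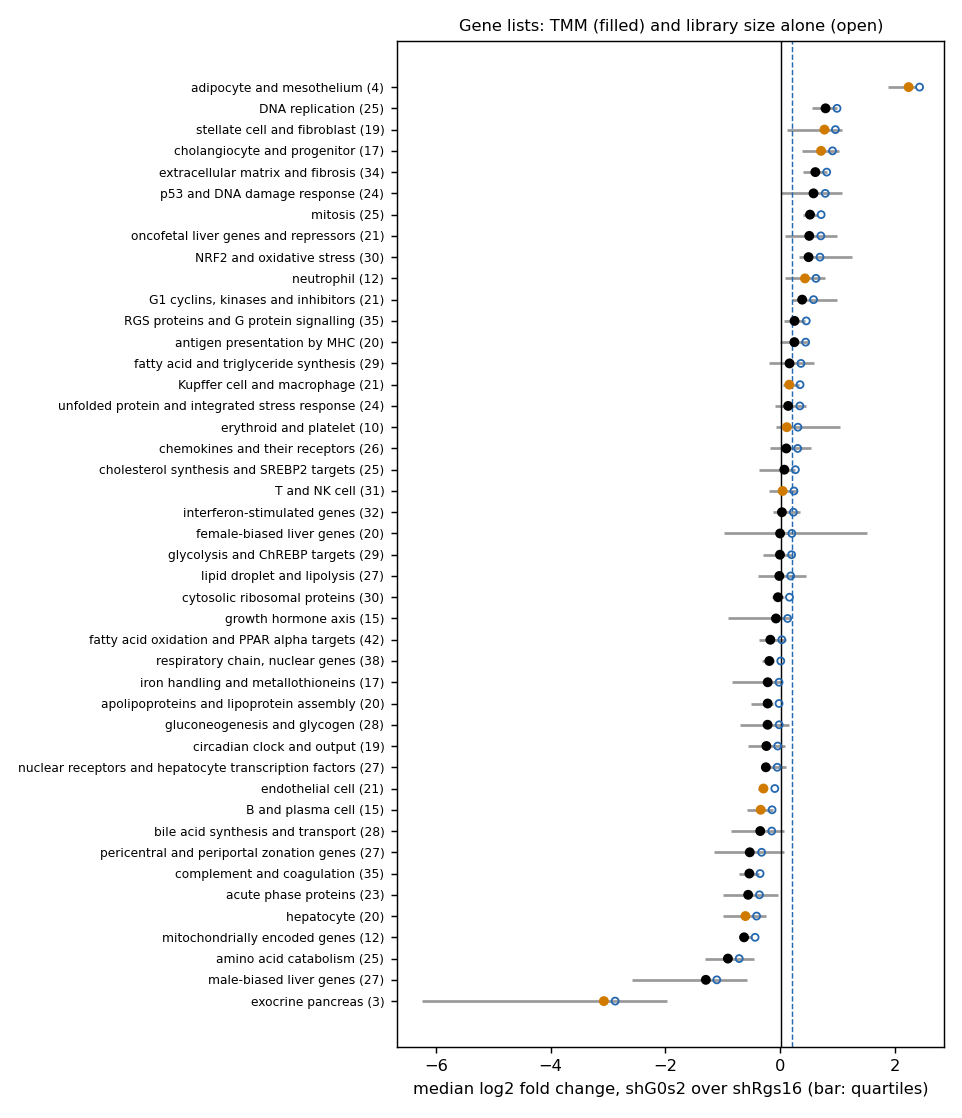
Median log2 fold change of shG0s2 over shRgs16 for each of the 44 gene lists, with the number of tested members in brackets; filled points use TMM scaling (black for pathway lists, orange for cell type markers), grey bars span the quartiles of members, open blue points use library size alone, and the dashed line is the median of all genes with library size alone. DNA replication (0.79) and stellate markers (0.77) lie to the right and amino acid catabolism (−0.91) and male-biased genes (−1.30) to the left under either scaling, while lists near 0 change side.

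Promoters of 3 of the genes named are shown as examples, chosen because each holds a motif of a regulator known for its list. Not all genes named from these lists do: the Pcna promoter holds 0 E2F matches and that of Slc7a11 0 antioxidant response element matches. They are RefSeq promoters of GRCm38.p6, 250 bases before to 50 after an annotated start, given 5′ to 3′ on the strand of the gene. Capitals mark matches to the E2F motif (TTTCGCGC or TTTGGCGC), the CHR element of mitotic genes (TTTGAA), the antioxidant response element bound by NRF2 (TGACNNNGC), the STAT5 motif (TTCNNNGAA) and the E-box (CACGTG), each searched on both strands. The Mcm3 promoter is chr1:20820263-20820562 on the minus strand, that of Top2a chr11:99024140-99024439 on the minus strand, and that of Abcc4, an export pump described next, chr14:118706170-118706469 on the minus strand.
Mcm3: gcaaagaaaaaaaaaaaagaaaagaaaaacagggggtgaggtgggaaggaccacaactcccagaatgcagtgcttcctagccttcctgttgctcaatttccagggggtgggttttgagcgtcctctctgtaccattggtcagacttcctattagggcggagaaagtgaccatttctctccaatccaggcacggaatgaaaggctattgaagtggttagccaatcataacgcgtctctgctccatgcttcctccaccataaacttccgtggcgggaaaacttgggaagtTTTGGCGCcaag
Top2a: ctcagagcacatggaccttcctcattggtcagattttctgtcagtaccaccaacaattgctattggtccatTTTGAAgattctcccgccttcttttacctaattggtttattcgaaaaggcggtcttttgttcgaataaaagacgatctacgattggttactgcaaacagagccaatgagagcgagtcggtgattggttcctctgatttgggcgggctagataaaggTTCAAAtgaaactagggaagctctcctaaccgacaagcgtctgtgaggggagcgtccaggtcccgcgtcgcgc
Abcc4: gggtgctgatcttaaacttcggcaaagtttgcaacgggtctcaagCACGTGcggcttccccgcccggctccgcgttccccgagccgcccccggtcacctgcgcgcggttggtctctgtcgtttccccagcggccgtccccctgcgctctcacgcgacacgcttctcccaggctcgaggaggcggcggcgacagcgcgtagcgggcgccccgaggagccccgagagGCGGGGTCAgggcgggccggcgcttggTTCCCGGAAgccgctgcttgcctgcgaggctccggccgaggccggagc

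Mcm3 holds 1 E2F match at position 39 from the start site, Top2a holds CHR matches at −179 and −23, and Abcc4 holds an antioxidant response element match at −25 beside a STAT5 and an E-box match. E2F matches occurred in 1.79% of promoters of genes higher in shG0s2, 1.11% of those lower, 1.38% of those of all genes tested and 0.813% of all promoters in the table. Antioxidant response element matches occurred in 14.1%, 13.9%, 14.1% and 12.4% in the same order, and CHR matches in 12.9%, 12.0%, 12.8% and 17.9%. STAT5 matches were in 6.57%, 6.93%, 7.11% and 8.30%, and E-boxes in 9.14%, 10.8%, 9.37% and 7.15%. These shares are descriptions of letters in a window of fixed length, and Abcc4 has another annotated start that is not shown.

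Genes of the NRF2 response, which protects cells against electrophiles and oxidants, were higher in shG0s2. Of 30 tested, 22 were higher than in shRgs16 and 1 was lower, with a median of 0.50. Abcc4, a plasma membrane pump for conjugates and bile acids, measured 65.8, 55.6, 57.9 and 53.1 CPM in shG0s2 and 9.27 to 11.5 CPM in shRgs16 (log2 fold change 2.48, SE 0.0876, adjusted p 1.18e-10). Its shLacZ level of 5.36 ± 0.434 CPM was below both. Slc7a11, the cystine importer that feeds glutathione synthesis, measured 21.0, 20.5, 12.8 and 21.0 CPM in shG0s2 and 0.636 to 1.03 in shRgs16 (log2 fold change 4.50, SE 0.297, adjusted p 2.01e-07), and shRgs16 did not pass against shLacZ (adjusted p 0.71). Gpx2, a glutathione peroxidase, shared that arrangement at 4.58 ± 0.122 CPM in shG0s2, 0.386 ± 0.266 in shRgs16 and 0.627 ± 0.344 in shLacZ. Other members rose against shLacZ in both hairpin groups, as Gstm3, a glutathione transferase, did with means of 970 ± 218 CPM in shG0s2, 253 ± 87.4 in shRgs16 and 23.4 ± 7.84 in shLacZ. Hmox1, heme oxygenase, and Gclm, a glutathione synthesis subunit, did not differ past the threshold between the hairpins, with log2 fold changes of 0.12 and 0.03. The single member that was lower was Gstp1, another glutathione transferase (−0.39).

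Male-biased liver genes were lower in shG0s2 than in shRgs16, and both groups lay below shLacZ. Of 27 tested, 21 were lower and 1 was higher, with a median of −1.30, and the medians against shLacZ were −2.30 in shG0s2 and −1.28 in shRgs16. Cyp7b1, an oxysterol hydroxylase, measured 20.8, 18.3, 32.5 and 25.3 CPM in shG0s2 and 205, 159, 322 and 186 in shRgs16, and the shLacZ mean was 323 ± 35.0 (log2 fold change −3.17, SE 0.251, adjusted p 5.25e-06). Elovl3, a fatty acid elongase, measured 10.6 to 15.3 CPM in shG0s2 and 61.8 to 81.7 in shRgs16 (−2.39). Female-biased genes spread both ways: 8 of 20 were higher and 7 lower, with a median of 0.00 that became 0.31 without shRgs16 replicate 4. That median also moved with the filter, to 0.623 with no low-count filter and −0.185 with 1 CPM in 4 samples. Cyp2a4 was high in shG0s2 at 408, 362, 649 and 288 CPM against 41.3, 30.3, 104 and 31.0 CPM in shRgs16 and 8.90 ± 3.52 in shLacZ (log2 fold change 3.05, SE 0.482). Cyp3a44, by contrast, measured 3.46, 5.13, 7.24 and 8.04 CPM in shRgs16 and 0.218 to 0.696 in shG0s2 (−3.65, SE 0.380). The direction of female-biased genes therefore differed gene by gene, with Cyp2b9 and Cyp2b13 higher in shG0s2 and Cyp3a44 higher in shRgs16. Cyp2a and Cyp3a genes have close copies, so values of single copies are uncertain. Rtn4, a reticulon listed as female-biased, was a moderate member at 211 to 242 CPM in shG0s2 and 117 to 123 in shRgs16 (0.91).

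In the list of the growth hormone axis, which sets sex-biased expression in liver, 6 of 15 genes were lower in shG0s2 and 3 higher with a median of −0.07, and library size alone gave 4 lower and 3 higher with a median of 0.13. Igf1, the main growth factor secreted by liver, measured 253, 238, 300 and 252 CPM in shG0s2 and 567, 510, 592 and 541 in shRgs16, with 493 ± 61.3 in shLacZ (log2 fold change −1.08, SE 0.093, adjusted p 4.84e-07). Igfals, which holds IGF1 in its circulating complex, averaged 25.7 ± 5.29 and 71.4 ± 12.8 CPM (−1.47). Ghr, the growth hormone receptor, gave −0.07 between the hairpins and did not pass. Of 21 oncofetal genes and their repressors, counted together, 11 were higher in shG0s2 and 3 lower, with a median of 0.51. Hk2, a hexokinase scarce in adult hepatocytes, averaged 21.9 ± 3.15 CPM in shG0s2 and 10.9 ± 1.13 in shRgs16, and Pkm, the muscle-type pyruvate kinase gene, 141 ± 11.1 and 94.3 ± 10.4 CPM. Afp, alpha-fetoprotein, went the other way at 8.84, 5.74, 4.23 and 8.00 CPM in shG0s2 and 20.7, 60.5, 19.5 and 27.2 in shRgs16 (−2.25, SE 0.387, adjusted p 0.00106). H19, an imprinted fetal RNA, was high in both hairpin groups at 102 to 447 and 102 to 229 CPM against 0.931 to 1.46 in shLacZ, and its log2 fold change between the hairpins of 0.51 did not pass (adjusted p 0.359).

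Of 29 genes of fatty acid and triglyceride synthesis, 11 were higher and 7 lower in shG0s2 (median 0.17), and 19 and 6 with library size alone. The higher members included the desaturases Scd1 and Scd2, the elongases Elovl6 and Elovl7, and Fasn, fatty acid synthase, at 284 ± 43.9 CPM in shG0s2, 138 ± 7.75 in shRgs16 and 151 ± 16.4 in shLacZ (log2 fold change 1.04, SE 0.101). Mogat1, an acyltransferase of triglyceride synthesis, averaged 6.12 ± 1.46 CPM in shG0s2 and 1.12 ± 0.293 in shRgs16 (2.43). Among the lower members were Lpin1, a phosphatidate phosphatase (−1.07), Acacb, the acetyl-CoA carboxylase of the mitochondrial surface (−0.94), and Dgat2, which completes triglyceride (−0.50). In the lipid droplet list, which includes G0s2 itself, 7 of 27 were higher and 11 lower, a balance that library size alone turned to 12 and 7. Cidec, which fuses droplets, measured 94.4, 96.4, 86.7 and 84.5 CPM in shG0s2, at most 21.8 in shRgs16 and 25.2 ± 5.07 in shLacZ (2.33, SE 0.194, adjusted p 4.23e-06). Cd36, a fatty acid uptake receptor, measured 387 to 427 CPM in shG0s2 and 117 to 169 in shRgs16, near the shLacZ range of 128 to 167 (1.53, SE 0.108). Pnpla7, a lysophospholipase, was lower at 71.1 ± 6.67 against 123 ± 4.74 CPM (−0.79), as was Plin5, a droplet coat protein of oxidative tissues (−0.97). Pnpla2, the lipase that G0s2 inhibits, measured 156 to 191 CPM in shG0s2 and 174 to 191 in shRgs16, and the groups overlapped (log2 fold change −0.08, SE 0.063, adjusted p 0.333).

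Of 42 fatty acid oxidation genes and PPAR alpha targets, 18 were lower in shG0s2 and 8 higher with TMM. Library size alone turned this to 11 lower and 16 higher. The list median was −0.17 with TMM and 0.03 with library size alone, beside 0.01 and 0.21 over all genes. The members with the smallest p were among the higher ones. Pex11a, a peroxisome division factor, measured 176 to 205 CPM in shG0s2 and 102 to 121 in shRgs16, and shLacZ was 215 ± 12.0 (0.75, SE 0.0693). Aldh3a2, an aldehyde dehydrogenase for fatty aldehydes, averaged 880 ± 59.5, 507 ± 40.9 and 488 ± 38.7 CPM in shG0s2, shRgs16 and shLacZ (0.80). Pdk4, which restrains pyruvate oxidation in fasting, was raised over shLacZ in both and by more in shRgs16, at 103 ± 13.7 CPM against 46.8 ± 15.6 in shG0s2 and 11.8 ± 2.68 in shLacZ (−1.14). Fgf21, a fasting hormone, averaged 3.26 ± 1.52 CPM in shG0s2 and 0.456 ± 0.197 in shRgs16 (2.80, SE 0.371). Cholesterol synthesis differed little: 1 of 25 genes was higher and 5 were lower, against 7 higher and 3 lower with library size alone. Dhcr7, the last enzyme of a cholesterol branch, was raised in shRgs16 at 90.4 to 127 CPM against 40.7 to 62.6 in shG0s2 and 44.9 to 56.5 in shLacZ (−1.04), and Acat2, acetyl-CoA acetyltransferase, was the member that was higher in shG0s2 (0.60). Of 20 apolipoprotein and lipoprotein genes 11 were lower and 2 higher, and under library size alone 9 and 4. Apoh, a plasma protein that binds phospholipid, averaged 647 ± 83.1 CPM in shG0s2 and 1316 ± 145 in shRgs16 (−1.02), while Apob stood the other way.

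Enzymes of amino acid breakdown were lower in shG0s2. Of 25 tested, 21 were lower and 0 higher, with a median of −0.91, and library size alone gave 20 lower and 1 higher. The median against shLacZ was −1.19 in shG0s2 and −0.30 in shRgs16. Aass, the entry enzyme of lysine breakdown, measured 183, 143, 171 and 165 CPM in shG0s2 and 383, 490, 445 and 492 in shRgs16, and shLacZ was 419 ± 57.9 (log2 fold change −1.45, SE 0.108, adjusted p 1.64e-07). Kmo, of the tryptophan pathway, averaged 255 ± 13.8 and 434 ± 9.13 CPM (−0.76). Cth, which makes cysteine, stood at 163 to 225 CPM in shG0s2 and 582 to 1009 in shRgs16 (−2.01, SE 0.367). Asns, asparagine synthetase, which belongs to the stress response list, showed a like arrangement at 2.34 to 2.65 CPM in shG0s2, 3.45 to 4.94 in shLacZ and 9.03 to 13.2 in shRgs16 (−2.19, SE 0.145, adjusted p 4.22e-08). Of 27 zonation genes, 15 were lower and 4 higher with a median of −0.53, and 13 and 8 with library size alone. The lower ones held periportal enzymes (Cps1, Hal, Asl, Ass1, Pck1) and pericentral ones alike. Glul, glutamine synthetase of the cells around the central vein, measured 437, 380, 478 and 471 CPM in shG0s2 and 1012, 927, 970 and 1081 in shRgs16, with 903 ± 40.0 in shLacZ (−1.18, SE 0.0818, adjusted p 7.70e-08).

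Among 28 genes of gluconeogenesis and glycogen, 12 were lower in shG0s2 and 5 higher, which library size alone turned to 8 lower and 10 higher. Among the higher members, Pygb, the brain form of glycogen phosphorylase, measured 61.8 to 70.6 CPM in shG0s2 and 27.9 to 31.8 in shRgs16 (1.14, SE 0.0788, adjusted p 7.37e-08), and Gbe1, the glycogen branching enzyme, averaged 271 ± 23.9 and 163 ± 7.92 CPM (0.73). Pck1 and G6pc, gatekeepers of glucose output, were lower in shG0s2, each with a log2 fold change of −0.69. Glycolysis and ChREBP targets were split 7 higher to 8 lower among 29, and 15 to 5 with library size alone. Pfkfb1, the liver bifunctional regulator of glycolysis, averaged 27.8 ± 5.39 CPM in shG0s2, 70.1 ± 4.49 in shRgs16 and 69.9 ± 2.94 in shLacZ (−1.33), whereas Eno1, an enolase, averaged 646 ± 40.2, 385 ± 12.4 and 505 ± 45.8 CPM (0.75). Of 28 bile acid genes 14 were lower and 4 higher, with a median of −0.35 and 12 and 5 under library size alone. Akr1d1, a steroid reductase of bile acid synthesis, averaged 110 ± 10.4 CPM in shG0s2 and 218 ± 17.6 in shRgs16 (−0.99), and Cyp8b1, which decides the share of cholic acid, 41.1 ± 28.3 and 169 ± 22.4 CPM (−2.04). Cyp7a1, the rate-limiting enzyme, was higher in shG0s2 (1.14, adjusted p 0.0469), and the samples of the hairpin groups overlapped.

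Mitochondrial transcripts were lower in shG0s2 than in shRgs16 where the mitochondrial genome encodes them. Of 12 tested, 9 were lower and 0 higher with a median of −0.63, and library size alone gave 7 lower and 0 higher. mt-Nd6 measured 898, 830, 875 and 835 CPM in shG0s2 and 1560, 1602, 1538 and 1382 in shRgs16 (−0.82, SE 0.0706, adjusted p 4.84e-07), and mt-Nd4 averaged 3270 ± 105 and 5372 ± 215 CPM (−0.72). All mitochondrially encoded genes together took 5.52% ± 0.200 of counts in shG0s2, 7.24% ± 0.346 in shRgs16 and 6.19% ± 0.262 in shLacZ. The hairpin groups did not overlap in that share, and its exact two-sided permutation p was 0.0286, the smallest that 4 against 4 samples can give. Over the 14 gene classes whose shares were compared the adjusted p was 0.05, so no class passed under 0.05. Of 38 nuclear genes of the respiratory chain, 23 were lower and 3 higher with TMM. Library size alone gave 5 lower and 7 higher, and limma on log2(TPM + 1) 1 lower and 14 higher. Their median was −0.19 with TMM, beside 0.01 over all genes. With library size alone it was 0.01, beside 0.21 over all genes. The sign of the counts thus depended on the scaling, while the list lay below the bulk of genes under both. Ndufa10, a complex I subunit, stood apart from its complex at 113, 109, 116 and 110 CPM in shG0s2, 55.7, 50.1, 50.7 and 50.9 in shRgs16 and 161 to 172 in shLacZ (1.11, SE 0.0517, adjusted p 1.18e-09). Ndufb10, another complex I subunit, averaged 54.8 ± 2.87, 74.8 ± 3.94 and 99.5 ± 4.46 CPM (−0.45).

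Secreted plasma proteins of hepatocytes were lower in shG0s2. In the complement and coagulation list 27 of 35 were lower and 1 higher, with a median of −0.54, and library size alone gave 22 and 5. F7, coagulation factor VII, measured 34.1, 26.8, 37.5 and 32.4 CPM in shG0s2 and 65.8 to 82.9 in shRgs16, near the shLacZ range of 64.2 to 80.9 (−1.13, SE 0.104). F13b, a coagulation factor XIII subunit, averaged 119 ± 15.9 and 208 ± 13.5 CPM (−0.81). Acute phase genes had 9 lower and 0 higher of 23, and 2 were higher without shRgs16 replicate 4 and 4 with limma on log2(TPM + 1). The 3 fibrinogen chains were among them, Fgg averaging 1493 ± 265 CPM in shG0s2 and 3376 ± 489 in shRgs16 (−1.18). Saa1 and Saa2, the main serum amyloid genes, gave −1.31 and −1.16 and did not pass. Beside these lists, 14 of the 20 hepatocyte markers were lower and 0 higher (median −0.60; DESeq2 called 1 higher), and their summed level ranged from 53566 to 81101 CPM in shG0s2 and from 90827 to 97020 CPM in shRgs16. Hpd, a tyrosine breakdown enzyme, was the member with the smallest p at 336 ± 67.9 against 844 ± 29.8 CPM, while Alb did not pass (−0.26, adjusted p 0.176). The part of hepatocyte RNA content in the lower lists was not tested.

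Genes of G protein signalling, the system that Rgs16 acts on, were more often higher than lower in shG0s2. The list of 35 tested holds Rgs16 itself, and 16 were higher and 2 lower, with a median of 0.25. Against shLacZ 21 members were higher and 4 lower in shG0s2, and 11 higher and 9 lower in shRgs16. Adcy6, an adenylyl cyclase, measured 73.5 to 79.1 CPM in shG0s2, 58.3 to 69.8 in shLacZ and 46.9 to 55.5 in shRgs16 (log2 fold change 0.61, SE 0.0682, adjusted p 6.04e-06). Gna11, a Gq family alpha subunit, averaged 70.7 ± 5.06 CPM in shG0s2, 71.9 ± 7.19 in shLacZ and 49.6 ± 3.23 in shRgs16 (0.51). Gnai1, a Gi alpha subunit, averaged 6.12 ± 1.61 CPM in shG0s2 and 1.95 ± 0.708 in shRgs16 (1.64), and the subunits Gnai2, Gnaq, Gna12, Gna13, Gnas and Gnb1 were also higher by smaller amounts of 0.19 to 0.30. Among other RGS genes Rgs11, at 0.821 ± 0.0891 CPM in shG0s2 and 0.218 ± 0.0862 in shRgs16, Rgs2 (0.42) and Rgs5 (0.45) were higher. Rgs4, a close relative of Rgs16, gave 0.43 and did not pass (adjusted p 0.392). The lower members were Adcy9, another adenylyl cyclase (−0.62), and Adra1b, the alpha-1B adrenergic receptor (−0.33).

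Metallothioneins, which bind zinc and copper, were among the more strongly lower abundant genes. Mt1 measured 98.6, 58.1, 81.1 and 88.6 CPM in shG0s2 and 395, 405, 389 and 590 in shRgs16 (−2.45, SE 0.238), and Mt2 averaged 51.2 ± 13.5 and 430 ± 104 CPM (−3.07, SE 0.234). Slc39a4, a zinc importer, stood the other way at 142 to 170 CPM in shG0s2, 60.3 to 67.9 in shRgs16 and 101 to 118 in shLacZ (1.25, SE 0.0712, adjusted p 9.86e-09). The whole list of 17 iron and metallothionein genes had 3 higher and 8 lower with TMM, and 5 and 5 with library size alone. Of 24 unfolded protein and integrated stress genes 7 were higher and 3 lower, among the higher Ddit3 (0.98) and Trib3 (1.07), and the chaperone Hspa5 gave −0.03 and did not pass. Of 19 clock genes 9 were lower and 4 higher, which library size alone turned to 4 and 6, and leaving out shG0s2 replicate 2 brought the lower ones to 5. Rora, an activating nuclear receptor of the clock, averaged 58.7 ± 6.69 CPM in shG0s2 and 96.4 ± 9.50 in shRgs16 (−0.72), Cry2, a repressor, 45.0 ± 6.88 and 68.7 ± 6.65 CPM (−0.61), and Nr1d1, the REV-ERB alpha repressor, 78.7 ± 22.0 and 28.1 ± 8.58 CPM (1.49). Among 27 nuclear receptors and hepatocyte transcription factors, 5 were higher and 8 lower, and 6 and 2 with library size alone. Pparg, the adipogenic receptor, measured 21.4 to 23.5 CPM in shG0s2, 12.4 to 17.5 in shLacZ and 7.67 to 12.4 in shRgs16 (1.17, SE 0.130). Cytosolic ribosomal protein genes had 4 higher and 5 lower of 30, 16 and 0 with library size alone, and 2 lower without shRgs16 replicate 4. Rpl19 was the largest of them at 222 ± 6.31 against 155 ± 7.56 CPM (0.52), and Rpl35 the next by p (0.22).

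Matrix genes and markers of stellate cells, the liver's vitamin A storing and matrix-making cells, were higher in shG0s2. Of 34 matrix genes 20 were higher and 1 lower, with a median of 0.62. The medians against shLacZ were 2.11 in shG0s2 and 1.46 in shRgs16, so both groups stood well above control. Dcn, the proteoglycan decorin, was an exception in departing in shG0s2 alone, at 238, 203, 170 and 220 CPM against 94.5, 99.3, 95.7 and 96.7 in shRgs16 and 98.8 ± 8.68 in shLacZ (log2 fold change 1.11, SE 0.0882, adjusted p 2.44e-07). Col5a3, a minor collagen chain, was below shLacZ in both, at 41.5 ± 5.89 CPM in shG0s2, 20.5 ± 2.28 in shRgs16 and 74.9 ± 5.15 in shLacZ (1.01). Col1a1, the main fibrillar collagen chain, gave 0.77 and did not pass. Of 19 stellate markers 11 were higher and 1 lower (median 0.77), and their summed level was 1202 to 1485 CPM in shG0s2, 551 to 901 in shRgs16 and 338 to 433 in shLacZ. Lrat, which esterifies retinol, averaged 42.3 ± 7.77 CPM in shG0s2, 18.9 ± 0.845 in shRgs16 and 21.3 ± 3.03 in shLacZ (1.16). Of the contractile markers Acta2 gave −0.65 and did not pass (adjusted p 0.142), and Myl9 was the lower member (−0.70), although its hairpin groups overlapped. The count of lower stellate markers was 0 with library size alone and 0 without shG0s2 replicate 2, and 3 without shRgs16 replicate 3. The part of stellate cell RNA in the matrix result was not tested.

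Markers of other cell types differed less evenly. Of 17 tested cholangiocyte and progenitor markers 9 were higher and 1 lower, with a summed level of 1038 to 1288 CPM in shG0s2 and 539 to 827 in shRgs16. Cd24a, a progenitor surface protein, measured 18.3, 18.1, 10.2 and 16.8 CPM in shG0s2 and 4.19 to 6.71 in shRgs16 (1.48, SE 0.193), and Cldn7, a tight junction protein, averaged 3.17 ± 1.06 and 0.830 ± 0.196 CPM (1.93). The duct markers Sox9 and Krt19 gave −0.25 and 0.45 and did not pass. Of 21 macrophage markers 5 were higher and 0 lower, 16 and 0 with library size alone, and 3 higher without shG0s2 replicate 3. Their summed level was 2011 to 2371 CPM in shG0s2 and 1816 to 2086 in shRgs16. Cd9, a tetraspanin of lipid-associated macrophages and other cells, averaged 73.5 ± 9.14 and 39.4 ± 3.44 CPM (0.90), and Adgre1, the F4/80 antigen, 84.0 ± 4.30 and 69.0 ± 6.08 CPM (0.28). T and NK cell markers had 1 higher and 3 lower of 31, against 4 and 3 with library size alone and 8 and 3 with limma on log2(TPM + 1), and 3 were higher without shLacZ replicate 3. Among the lower were Gzma, a killer cell protease, at 4.12 ± 0.683 CPM in shG0s2 and 7.41 ± 1.23 in shRgs16 (−0.84) and Cd4 at 2.35 ± 0.382 and 3.96 ± 0.723 CPM (−0.75). B cell markers had 1 higher, Cr2 (1.13), and 1 lower, Ighd (−0.97), of 15, and without shG0s2 replicate 3 the lower ones numbered 4. Of 12 neutrophil markers 0 passed in edgeR with TMM, and 4 were higher and 0 lower in edgeR with library size alone. Camp, which encodes the antimicrobial peptide cathelicidin, had the only unadjusted p under 0.05 (1.16, adjusted p 0.0577), and it passed with library size alone (adjusted p 0.0234), in DESeq2 (0.018) and in limma-voom (0.0278). Elane, a neutrophil elastase, gave 0.90 (adjusted p 0.106, and 0.0403 with library size alone).

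Endothelial markers were lower in shG0s2 in 10 of 21 and higher in 1, with a median of −0.29, and library size alone left 4 lower and 1 higher. The lower ones numbered 8 without shG0s2 replicate 2 and 15 without shRgs16 replicate 4. Their summed level overlapped between the hairpin groups, at 677 to 773 CPM in shG0s2 and 703 to 973 in shRgs16. Wnt2, which endothelial cells near the central vein secrete, measured 2.05 to 2.47 CPM in shG0s2 and 3.90 to 5.72 in shRgs16 (−1.21, SE 0.161), and Oit3, a sinusoidal endothelial marker, 21.2 to 25.4 and 29.1 to 41.1 CPM (−0.62). Of 10 erythroid and platelet markers 4 were higher and 1 lower. Slc4a1, the band 3 anion exchanger, averaged 6.54 ± 2.40 CPM in shG0s2 and 1.51 ± 0.832 in shRgs16 (2.09), while the hemoglobin genes did not pass. Alas2, the erythroid heme synthesis enzyme, was lower at 17.8 to 29.1 CPM in shG0s2, 43.7 to 54.0 in shRgs16 and 127 to 156 in shLacZ (−0.99). Of 12 adipocyte and mesothelium markers only 4 passed the low-count filter and those include Cidec and Fabp4, a fatty acid binding protein (1.07); Adipoq, Lep and Retn had at most 4 counts in any group. Among 32 interferon-stimulated genes 5 were higher and 4 lower, against 11 and 2 with library size alone and 12 and 1 with limma on log2(TPM + 1), and without shLacZ replicate 1 the higher ones numbered 8. Those past the threshold include Stat2, a signal transducer of interferon receptors (0.35), and Usp18, which damps that signal (−0.60). Of 20 antigen presentation genes 11 were higher and 2 lower, the higher ones including the class II genes Cd74, H2-Aa, H2-Ab1 and H2-Eb1 (0.49 to 0.54), and 7 were higher without shG0s2 replicate 3. Ciita, the activator of class II genes, averaged 24.1 ± 3.15 CPM in shG0s2, 13.7 ± 1.62 in shRgs16 and 6.19 ± 1.69 in shLacZ (0.82, adjusted p 3.98e-04), a call that limma on log2(TPM + 1) did not make (adjusted p 0.0896). H2-T23, a nonclassical class I gene, was lower at 242 ± 36.7 against 378 ± 11.4 CPM (−0.64). Of 26 chemokine genes and receptors 6 were higher and 2 lower, Cxcl14 averaging 20.7 ± 3.21 CPM in shG0s2 and 5.99 ± 0.781 in shRgs16 (1.78) and Ccr7, a homing receptor, 2.90 ± 0.179 and 1.47 ± 0.264 CPM (0.97).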

How the data were processed

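RNA from 12 liver samples was measured in 3 groups of 4, and the groups and replicate numbers come from the sample titles. The authors deposited, per the file headers, estimated counts per gene and sample in 1 table for each knockdown with its controls. The same deposited tables hold TPM, a level per transcript length scaled to a fixed total. Fold changes and p-values of the authors in these tables were not used here. Per the submitters' processing notes the tools included DESeq2, SAMtools 1.9, GATK 3.8, Bowtie2 2.2.9 and fastp 0.19.5, with no role given for any. For the genome build, the annotation, the counting program and strand use, the sources used here name none. Because estimated counts assign shared reads by a model, near-identical copies are uncertain.

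The tables were joined on 55536 gene identifiers, and the shLacZ columns were the same in both (0 differing values in 8 columns). All identifiers matched GENCODE M21 (GRCm38), the source of coordinates. Counts were rounded to whole numbers, filtered with filterByExpr, scaled by TMM and fitted in 1 model of all 12 samples, and the contrast was tested by edgeR 4.0.16 (R 4.3.3), whose quasi-likelihood test is two-sided. P-values were adjusted by Benjamini-Hochberg over 16018 genes with a threshold of 0.05, and adjusted p-values are from edgeR unless another tool is named. On simulated counts for 16018 genes the test of this contrast recovered 29 of 50 genes changed 1.5-fold, 41 of 50 changed 2-fold, 47 of 50 changed 4-fold and 48 of 50 changed 8-fold, with 5 false calls. Only these genes were changed, with as many rises as falls, so the premise of TMM held by design. In the data 41.5% of genes were called, so the 5 false calls are no error rate for this contrast.

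The named genes are G0s2 and Rgs16, the 8 largest rises and falls past the threshold with an official symbol, a mean of at least 1 CPM in the higher group and no overlap, the 4 largest CPM differences each way, 4 genes each way opposed against shLacZ, and from each list the 2 genes whose p is smallest; some genes this rule takes are not reported here. The contrast, the 44 lists and this rule were chosen with earlier results of these data known. Lists were counted and not tested as sets. Library shares were compared with exact permutation tests over 70 assignments. Promoters were available to the motif search for 79 of the 107 named genes. Alternatives were DESeq2 1.42.0, limma-voom and limma 3.58.1 on log2(TPM + 1), other scalings and filters, Mup genes left out, the 8 hairpin samples alone, a replicate block and each sample left out.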

Additional observations from a re-analysis of the deposited data

Results flagged for a closer look

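In each hairpin group of 4, the gap between an extreme sample and its nearest neighbour was compared with Dixon's 95% critical value. This was done for the named genes and library shares, and the shLacZ samples were not screened. Of 245 such tests 18 stood out, where chance alone flags about 1 in 20. In shRgs16 replicate 4, Kcnj14 (0.239 CPM), Mat1a (4853 CPM) and Fgb (5541 CPM) were high, and Col5a3 (17.1 CPM) and the library share of endothelial markers (0.0712%) were low. In shRgs16 replicate 3, Hsd3b5 was high (52.5 CPM) and the share of cholangiocyte and progenitor markers low (0.0537%). In shRgs16 replicate 1, Ndufa10 (55.7 CPM) and Alas2 (54.0 CPM) were high and Kmo (420 CPM) was low, and in replicate 2 Slc24a4 (6.18 CPM) and H2-T23 (395 CPM) were high. In shG0s2 replicate 1, Scd1 was high (7393 CPM), and in replicate 3 Mup22 was high (2269 CPM) and Slc7a11 low (12.8 CPM). In shG0s2 replicate 2, the shallowest library, Rpl35 was high (99.7 CPM), and the shares of Alb (2.97%) and of hepatocyte markers (6.67%) were low.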

How the results depend on the processing

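DESeq2 called 6807 genes, limma-voom 6790, RLE scaling 6640, the 8 hairpin samples alone 6621, Mup genes left out 6616, a filter of 1 CPM in 4 samples 6447 and no filter 6267, against 6640. Library size alone gave 6054 higher and 1568 lower, and limma on log2(TPM + 1) 6156 higher and 1083 lower. Genes that departed from shLacZ in neither group numbered 310 with library size alone and 194 on TPM, and on TPM 507 departed in shRgs16 alone and 3986 in both in the same direction. Leaving out 1 sample gave 5779 (without shRgs16 replicate 3) to 6869 calls (without shLacZ replicate 4). A replicate block gave 6534 calls, 3292 higher and 3242 lower, and under it Camp passed (adjusted p 0.0315) where no other named gene changed side. Samples share only a number: deviations of same-numbered samples correlated at −0.01, 0.03, 0.14 and −0.03, and not every sample correlated best with its own number. Of 107 named genes 103 kept their side of the threshold under every setting in which they were tested, and 0 reversed. Most were picked for large changes or small p in these data, so this says little about other calls. Low counts limit genes near 0 in a group, and on the log2(TPM + 1) scale their changes are understated.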
